A study of Mus musculus with 8 samples.

Results

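Hspa1a and Hspa1b, the stress-inducible HSP70 genes, were described in CDPs of HFD and CF mice beside 8 further genes of the heat shock system: Hspa8, Hsph1, Dnajb1, Hsp90aa1, Hsp90ab1, Hspd1, Hspe1 and Hsf1. All 10 genes were found, among 16119 genes in the table of counts. They were taken by symbol, and Hspa1a and Hspa1b were chosen by their lower counts in HFD, with the other 8 as further chaperones and targets of the same factor to set beside them. The difference between the diets is therefore given as a description for each of the 10, with its standard error and no p-value, and how many passed the threshold over all genes is stated as a count from which nothing is read.

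CDPs are bone marrow progenitors restricted to the dendritic cell lineage, and here they were sorted from C57BL/6 mice (C57BL/6J in the study's methods) as lineage-negative cells with intermediate c-Kit, low Sca-1, CD115 and Flt3. HFD mice, labelled DIO, received 60 kcal% fat, and CF mice, labelled DIO-Control, received 10 kcal% fat. The labels give 16 weeks of diet for HFD and call CF a matched control without a number, while the study's methods describe males aged 16 weeks. RNA of about 50000 cells per replicate was amplified and sequenced, with 4 replicates per diet and total counts between 28203651 and 38969160 for HFD and between 32575696 and 48409689 for CF. The labels do not say whether a replicate came from 1 mouse or several, so the spread given is that between these samples. CPM, the usual counts scaled to a common library size, were taken after TMM scaling, with factors between 1.01 and 1.13 for the HFD libraries and between 0.800 and 1.18 for CF. Flt3, which the sort used, had 88.8 CPM in HFD replicate 1 and 227 to 378 CPM in the other 7 libraries. Csf1r and Kit, the genes of CD115 and c-Kit, had 93.6 and 45.6 CPM in HFD replicate 1. These lay within the range of the other 7 libraries, 79.4 to 133 CPM for Csf1r and 34.2 to 53.6 CPM for Kit. The 9 neutrophil markers summed to 19260 CPM in HFD replicate 1, to between 1030 and 3616 CPM in the other HFD replicates and to between 2015 and 6539 CPM in CF, although the gate removes lineage-positive cells. Summed erythroid markers were 390 CPM in HFD replicate 1 and 74.7 to 121 CPM in the other 7 libraries. B cell markers summed to between 41.9 and 72.7 CPM on HFD and between 30.2 and 48.7 CPM on CF. T and NK cell markers, without Cd3e and Ncr1, which were not tested, summed to between 4.59 and 5.81 CPM on HFD. On CF they summed to between 2.65 and 4.25 CPM, so that each HFD library was above each CF library. Of all genes tested, 2.58% had every HFD library above every CF library. The 4 genes were each at most 2.52 CPM, and their log2 fold changes were 1.87 (Cd4), 0.76 (Klrb1c), 0.01 (Cd8a) and -0.11 (Cd3d). The part of these cells in the results was not tested. HFD replicate 1 therefore stood apart, and values without it are given where a result rests on it. In bulk RNA, fewer cells of a type and less RNA per cell cannot be told apart.

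HSP70 proteins bind unfolded stretches of other proteins and release them in a cycle driven by ATP. J-domain proteins such as Dnajb1 start that cycle, and nucleotide exchange factors such as Hsph1 close it. HSP90 takes over partly folded clients, while Hspd1 and Hspe1 form the folding chamber of mitochondria, so these 2 are not cytosolic chaperones. HSF1 is the factor that heat and other stress release to bind heat shock elements, which are inverted repeats of GAA and TTC, and to switch on many of these genes. In white blood cells Hspa8 is made constantly, whereas Hspa1a and Hspa1b respond quickly to stress.

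Promoters are shown because HSF1 acts through them and because Hspa1a and Hspa1b nearly share theirs. RefSeq windows on GRCm38.p6 from 250 bases before to 50 bases after a start were held for 6 of the 10 genes, in 9 windows. The windows were searched for GAANNTTC and TTCNNGAA, each of which reads the same on both strands and may overlap the other. Capitals mark these matches. The Hspa1a window lies on the minus strand at chr17:34972107-34972406 and the Hspa1b window on the minus strand at chr17:34959189-34959488.
Hspa1a: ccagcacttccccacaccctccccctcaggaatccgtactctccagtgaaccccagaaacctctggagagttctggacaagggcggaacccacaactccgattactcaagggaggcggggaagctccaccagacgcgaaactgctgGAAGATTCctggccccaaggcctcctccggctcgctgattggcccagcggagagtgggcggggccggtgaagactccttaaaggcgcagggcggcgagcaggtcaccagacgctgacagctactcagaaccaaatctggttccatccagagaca
Hspa1b: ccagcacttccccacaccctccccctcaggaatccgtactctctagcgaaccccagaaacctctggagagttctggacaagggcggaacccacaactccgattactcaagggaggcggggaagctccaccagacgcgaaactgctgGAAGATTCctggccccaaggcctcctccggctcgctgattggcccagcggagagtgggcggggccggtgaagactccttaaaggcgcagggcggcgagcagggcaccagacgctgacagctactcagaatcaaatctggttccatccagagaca

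The Hspa1a and Hspa1b windows had 296 of 300 bases in common. Counted from 1 at the 5′ end of the window, with the base of Hspa1a first, they differed by C44T, T47C, T249G and C276T. Each held 1 match, GAAGATTC, which began 104 bases before the start and was the same in both. The other matches lay in Hsph1, Hspd1 and Hspe1. Hspd1 and Hspe1 point away from each other and share 1 run of 3 overlapping matches, shown from the Hspe1 side at chr1:55088039-55088096 on the plus strand. The Hsph1 stretch is from the minus strand at chr5:149636268-149636389.
Hspe1: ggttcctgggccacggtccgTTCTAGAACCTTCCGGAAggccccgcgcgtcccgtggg
Hsph1: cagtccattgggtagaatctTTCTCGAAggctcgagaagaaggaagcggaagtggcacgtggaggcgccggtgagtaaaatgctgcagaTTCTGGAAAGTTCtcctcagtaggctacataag

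Matches in which a GAANNTTC and a TTCNNGAA share their middle unit, so that 3 units follow each other, were present in 4 of the 9 windows, those of Hsph1, Hspe1 and 1 of 2 for Hspd1, and in 0.603% of all 32851 windows. At least 1 match of either kind was present in 6 of the 9 windows and in 15.1% of all windows. Both Dnajb1 windows and the other Hspd1 window had no match, which says only that these letters are not in them.

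Hspa1a (ENSMUSG00000091971) encodes an inducible HSP70 and lies on the minus strand at chr17:34969190-34972156 of GRCm38, as 1 exon of 2967 bases. It received 1733, 644, 649 and 1138 counts in HFD replicates 1 to 4 and 11517, 8010, 7638 and 7638 counts in CF replicates 1 to 4. After scaling, these were 55.6, 20.3, 17.03 and 27.6 CPM in HFD and 298, 255, 241 and 199 CPM in CF. No HFD library reached the lowest CF library, and HFD replicate 1 was the highest of its diet. Mean levels were 30.1 ± 17.6 CPM on HFD and 248 ± 40.9 CPM on CF (SD, n = 4), so that CF was 8.23 times as high. The log2 fold change was -3.04 (standard error 0.38), and -3.52 without HFD replicate 1.

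Hspa1b (ENSMUSG00000090877) encodes a nearly identical protein and lies 9951 bases away on the same strand, at chr17:34956436-34959238, also as 1 exon. Its counts were 2160, 770, 746 and 1497 in HFD and 14227, 9179, 8641 and 9096 in CF. These corresponded to 69.3, 24.2, 19.6 and 36.3 CPM in HFD and 368, 292, 272 and 236 CPM in CF. The groups again did not overlap, and the replicates stood in the same order as for Hspa1a. Mean levels were 37.4 ± 22.4 CPM on HFD and 292 ± 55.4 CPM on CF (SD, n = 4), a ratio of 7.82. Its log2 fold change was -2.97 (standard error 0.40), and -3.45 without HFD replicate 1.

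The coding sequences of Hspa1a and Hspa1b had 99.4% of their aligned bases in common, and the whole transcripts 85.2%. Of all windows of 75 bases, the read length of the study, 38.3% in the Hspa1a transcript and 44.2% in Hspa1b occurred in no other gene's transcript. The remaining windows were shared mostly with the partner gene. The paper states that uniquely mapped read pairs were used, in which case counts of the 2 genes would rest on the parts that differ. On chromosome 8, however, the 5S rRNA copies n-R5s106, n-R5s118 and n-R5s130 had nearly equal means of 866, 862 and 858 CPM in CF. Whether reads shared between genes entered the counts was not tested, and how pairs were divided between the 2 genes is uncertain. Hspa1a held 44.5%, 45.5%, 46.5% and 43.2% of the summed counts of both genes in HFD and 44.7%, 46.6%, 46.9% and 45.6% in CF. The diets overlapped in this share, with CF replicate 3 highest and HFD replicate 4 lowest.

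With both genes summed, the level was 125, 44.5, 36.6 and 63.9 CPM in HFD and 665, 547, 513 and 435 CPM in CF. The lowest CF value was above the highest HFD value, and the standard error of the log2 fold change was 0.39. As CPM of the library size alone, without TMM factors, Hspa1a was 238, 224, 217 and 234 in CF and 56.0, 22.8, 18.9 and 29.2 in HFD. On that scale CF replicate 4 was second in its diet in place of last, and HFD replicate 1 was still the highest of its diet.

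**Figure D1:**
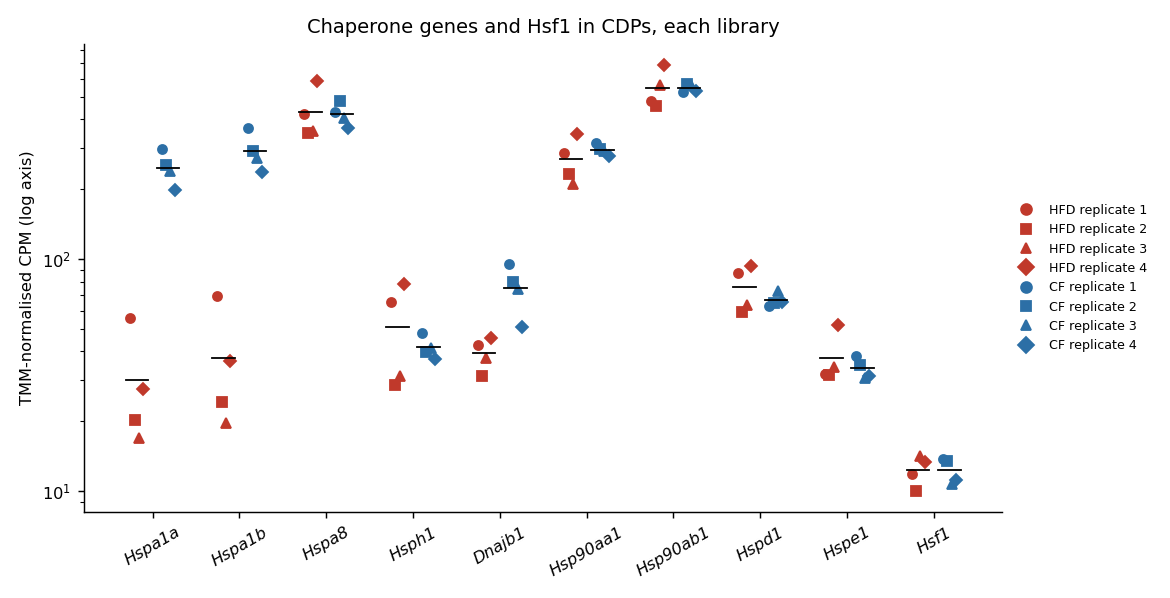
CPM after TMM scaling (log axis) of the 10 genes in each library, HFD in red and CF in blue, with a marker shape for each replicate number and a line at the mean of each diet. The HFD points lie below all CF points for Hspa1a, Hspa1b and Dnajb1 and overlap with CF for the other 7 genes.

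Hspa8 (chr9:40800984-40810087, plus strand) encodes the constitutive partner, HSC70, which folds new proteins and strips clathrin coats. It had 422, 350.0, 357 and 586 CPM in HFD and 429, 481, 407 and 369 CPM in CF. The diets overlapped, with HFD replicate 4 above all others. The means were 429 ± 110 CPM in HFD and 422 ± 47.0 CPM in CF (SD, n = 4), and the log2 fold change of 0.02 was smaller than its standard error of 0.19. Of its windows of 75 bases, 33.0% also occurred in other genes' transcripts, so how far shared reads entered its count is uncertain as well.

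Hspa8 was also used as a scale within each library, which needs no scaling factor. Per kilobase of annotated exon, the summed counts of Hspa1a and Hspa1b came to 44.4%, 19.0%, 15.3% and 16.3% of Hspa8 in HFD. In CF they came to 232%, 170%, 188% and 176% of Hspa8. On this scale the inducible genes exceeded the constitutive gene in each CF library and stayed under it in each HFD library. The Hspa8 length used, 4301 bases, joins the exons of 10 models, and its longest transcript has 3158 bases. The size of the percentages, and so whether they pass 100%, depends on that length, while the separation of the diets does not. Of the 3 genes together, they held 18.5% ± 8.23 (SD, n = 4) in HFD and 65.5% ± 3.09 (SD, n = 4) in CF.

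**Figure D2:**
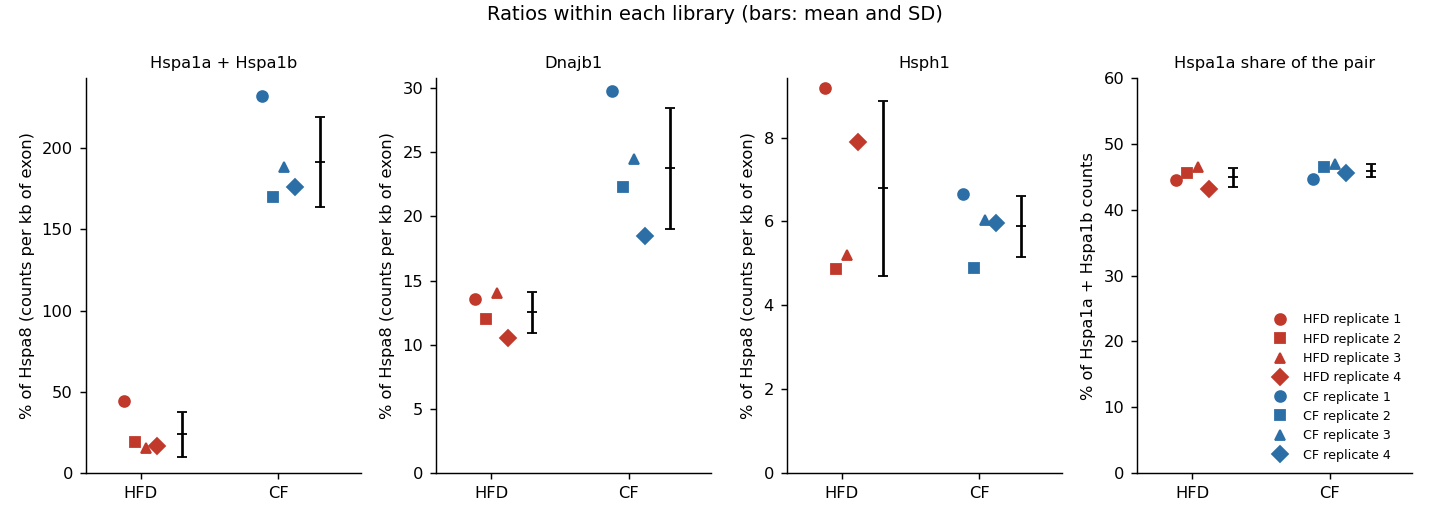
Counts per kilobase of exon of Hspa1a plus Hspa1b, of Dnajb1 and of Hsph1 as a percentage of Hspa8 in the same library, and the share of Hspa1a in the summed counts of Hspa1a and Hspa1b. Points are libraries and bars the mean and SD of 4; the first 2 ratios separate HFD from CF, and the third and the fourth overlap.

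Dnajb1 (chr8:83608193-83612653, plus strand) encodes the HSP40 that works with the inducible HSP70s. It had 42.6, 31.2, 37.3 and 45.8 CPM in HFD and 95.3, 80.1, 74.2 and 50.8 CPM in CF. No HFD replicate reached the lowest CF replicate, CF replicate 4, but the gap between HFD replicate 4 and CF replicate 4 was narrow. CF was 1.91 times as high as HFD on the mean (39.2 ± 6.39 against 75.1 ± 18.5 CPM, SD, n = 4). The log2 fold change was -0.94 (standard error 0.20) and ranged from -1.08 to -0.70 over 17 alternative settings. As a percentage of Hspa8 per kilobase, Dnajb1 was 12.5% ± 1.61 in HFD and 23.8% ± 4.72 in CF, again without overlap.

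Hsph1 (chr5:149614287-149636376, minus strand) encodes HSP110, a nucleotide exchange factor for HSP70 and itself a heat-inducible gene. It had 65.4, 28.8, 31.4 and 78.2 CPM in HFD and 48.2, 39.7, 41.5 and 37.2 CPM in CF. HFD replicates 1 and 4 were above all CF replicates, and HFD replicates 2 and 3 were below them. The log2 fold change of 0.29 (standard error 0.32) was smaller than its error, and it was -0.03 without HFD replicate 4. Among the 10 genes, Hsph1 had the largest relative spread in HFD after Hspa1a and Hspa1b, with a coefficient of variation of 48.4% against 11.4% in CF.

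Hsp90aa1 (chr12:110690605-110702728, minus strand), the more inducible HSP90 gene, had 287, 232, 211 and 348 CPM in HFD and 317, 298, 292 and 278 CPM in CF. Hsp90ab1 (chr17:45567775-45573271, minus strand), the constitutive one, had 480, 457, 566 and 685 CPM in HFD and 524, 568, 562 and 533 CPM in CF. Both overlapped between the diets, and the log2 fold changes were -0.14 (standard error 0.16) and 0.0007 (standard error 0.15). Their CF replicates lay close together, with coefficients of variation of 5.55% and 3.94%, against 22.7% and 18.9% in HFD. Hsp90aa1 amounted to 37.9% ± 7.08 of Hsp90ab1 per kilobase in HFD and 41.4% ± 3.20 in CF (SD, n = 4).

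Hspd1 and Hspe1 encode HSP60 and HSP10 and lie head to head on chromosome 1, at chr1:55077835-55088243 on the minus strand and chr1:55088132-55091307 on the plus strand. Hspd1 had 86.8, 58.9, 63.7 and 93.2 CPM in HFD and 63.0, 64.6, 73.0 and 65.6 CPM in CF. Hspe1 had 32.1, 31.6, 34.3 and 52.2 CPM in HFD and 38.2, 35.1, 30.6 and 31.4 CPM in CF. The diets overlapped in both genes, with log2 fold changes of 0.19 (standard error 0.16) and 0.15 (standard error 0.18). In each, HFD replicate 4 stood above the other 7 libraries. The models of the 2 genes overlap at their starts, on opposite strands, and the strand setting of the counting is not given in the sources used here.

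Hsf1 (chr15:76477422-76501913, plus strand), the gene of the factor itself, had 11.8, 10.0, 14.2 and 13.4 CPM in HFD and 13.8, 13.4, 10.8 and 11.2 CPM in CF. The means were 12.4 ± 1.83 CPM in HFD and 12.3 ± 1.53 CPM in CF (SD, n = 4), and the log2 fold change was 0.01 (standard error 0.15). The diets overlapped. These are levels of RNA, and the activity of the HSF1 protein was not measured in these data.

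**Figure D3:**
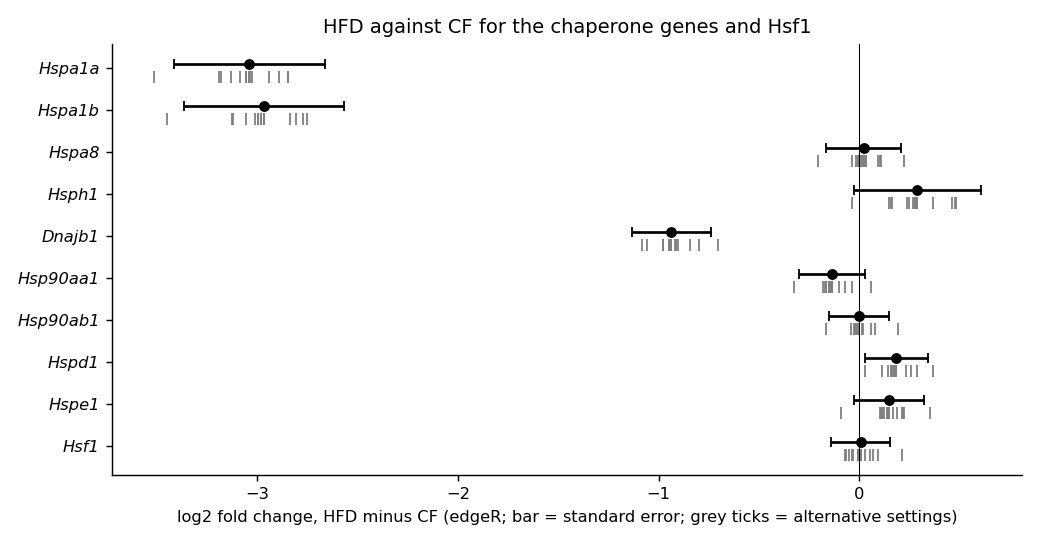
Log2 fold change of HFD minus CF for the 10 genes from edgeR (points), with the standard error (bars) and the values under the alternative settings (grey ticks). Hspa1a and Hspa1b stay between -3.52 and -2.75 and Dnajb1 between -1.08 and -0.70, while the other 7 genes stay between -0.32 and 0.49.

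Across the 10 genes, 3 did not overlap between the diets with HFD below CF, 0 had HFD above CF, and 7 overlapped. Over all 15837 genes tested, 3.58% had every HFD library below every CF library and 2.58% above. By edgeR's quasi-likelihood test with Benjamini-Hochberg adjustment, 2 of the 10 genes, Hspa1a and Hspa1b, were past an adjusted p of 0.05, where 0.423% of all genes were called lower and 0% higher. Since the genes were chosen from this contrast, nothing is read from these counts. Neither gene was called without HFD replicate 2, 3 or 4 or CF replicate 1, 2 or 3, where Hspa1a lay between -3.06 and -2.85. For Hspa8, Hsph1, Hsp90aa1, Hsp90ab1, Hspe1 and Hsf1 the sign of the difference changed among the alternative settings, so no direction is given for them. Without TMM factors the median log2 fold change of all genes moved from 0.05 to 0.25, and Hsp90ab1 and Hsf1 then had 0.19 and 0.22.

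The libraries ranked the genes in different ways. HFD replicate 4 was the highest of its diet in 7 of the 8 genes other than Hspa1a and Hspa1b, and the highest of all 8 libraries in 6. For Hspa1a and Hspa1b, HFD replicate 1 was the highest of its diet, the library with the most neutrophil RNA. CF replicate 1 was the highest of its diet in 7 of the 10 genes and CF replicate 4 the lowest in 6, and these 2 had the smallest and the largest TMM factor of all libraries. The part of neutrophil RNA and of the scaling in these orders was not tested.

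Per kilobase of annotated exon, the order of the levels in CF was led by Hsp90ab1, with 182 ± 7.19 CPM per kilobase (SD, n = 4). Hspa1b (104 ± 19.8), Hspa8 (98.0 ± 10.9), Hspa1a (83.5 ± 13.8) and Hsp90aa1 (75.4 ± 4.19) followed, and the SD range of each overlapped that of the next. Hspd1 (25.2 ± 1.68), Dnajb1 (23.4 ± 5.76) and Hspe1 (23.0 ± 2.38) likewise overlapped in their SD ranges, and Hsph1 and Hsf1 came last with 5.73 ± 0.65 and 1.73 ± 0.22. In HFD, Hsp90ab1 (182 ± 34.4), Hspa8 (99.7 ± 25.6) and Hsp90aa1 (68.6 ± 15.6) led. Hspa1b (13.3 ± 8.01) and Hspa1a (10.2 ± 5.92) were there sixth and eighth of 10, on both sides of Dnajb1 (12.2 ± 1.99), and the SD ranges of the 3 genes overlapped. The whole annotated exon length was used, although only part of it is unique to a gene (38.3% of the windows of 75 bases in Hspa1a and 44.2% in Hspa1b, against 99.5% in Hsp90ab1). If shared reads were left out, levels of the genes with shared windows may be too low. The place of these genes in both orders is therefore uncertain.

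Hspa1a and Hspa1b are genes of 1 exon, unlike the other 8, whose longest models have 3 exons (Dnajb1) to 19 exons (Hsph1). Single-exon protein-coding genes as a class had a median log2 fold change of 0.12 over 305 genes tested, against 0.07 over the 11470 other protein-coding genes. In edgeR 2 of the 305 were called lower, Hspa1a and Hspa1b, which were chosen for their lower counts, and 2 of the 11470 others.

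The table held 10 genes within 20 kb of the pair, Hspa1a and Hspa1b among them, and all passed the filter on low counts. 1110038B12Rik, a non-coding transcript on the same strand beyond Hspa1b, had 135, 44.9, 169 and 120 CPM in HFD and 583, 466, 435 and 163 CPM in CF. Its diets overlapped through CF replicate 4 (log2 fold change -1.81, edgeR, adjusted p = 0.17). The snoRNA genes Snord52 and Gm25744 lie inside it and differed by -1.48 (edgeR, adjusted p = 0.73) and -1.24 (edgeR, adjusted p = 0.22) on the log2 scale. Gm20481 overlaps Hspa1a on the other strand and had at most 1.32 CPM in any library. Its log2 difference was -2.17 (edgeR, adjusted p = 0.20), and its windows of 75 bases were partly shared with Hspa1a.

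Hspa1l, an HSP70 gene of the testis that points away from Hspa1a, had 8.81 CPM in CF replicate 1 and 0.25 to 1.16 CPM in the other 7 libraries (edgeR, adjusted p = 0.77). Gm10501, an antisense gene that overlaps Hspa1l on the other strand, had 0.98 CPM in CF replicate 1, 5.02 to 6.68 CPM in the other CF replicates and 1.02 to 2.21 CPM in HFD (log2 fold change -1.68, edgeR, adjusted p = 0.30). Lsm2, a gene of RNA processing at the far end, had 8.62 to 11.2 CPM in HFD and 7.10 to 12.3 CPM in CF, a log2 difference of -0.07 (edgeR, adjusted p = 0.97). Gm8696, a pseudogene, had at most 1.67 CPM (log2 fold change -0.65, edgeR, adjusted p = 0.84). By edgeR 0 of the 8 neighbours were called, from which nothing is read, since 0.423% of all genes tested were called lower and 0% higher. Without the strand of the counting, reads of Hspa1l and Gm10501, or of Hspa1a and Gm20481, cannot be told apart where they overlap.

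**Figure D4:**
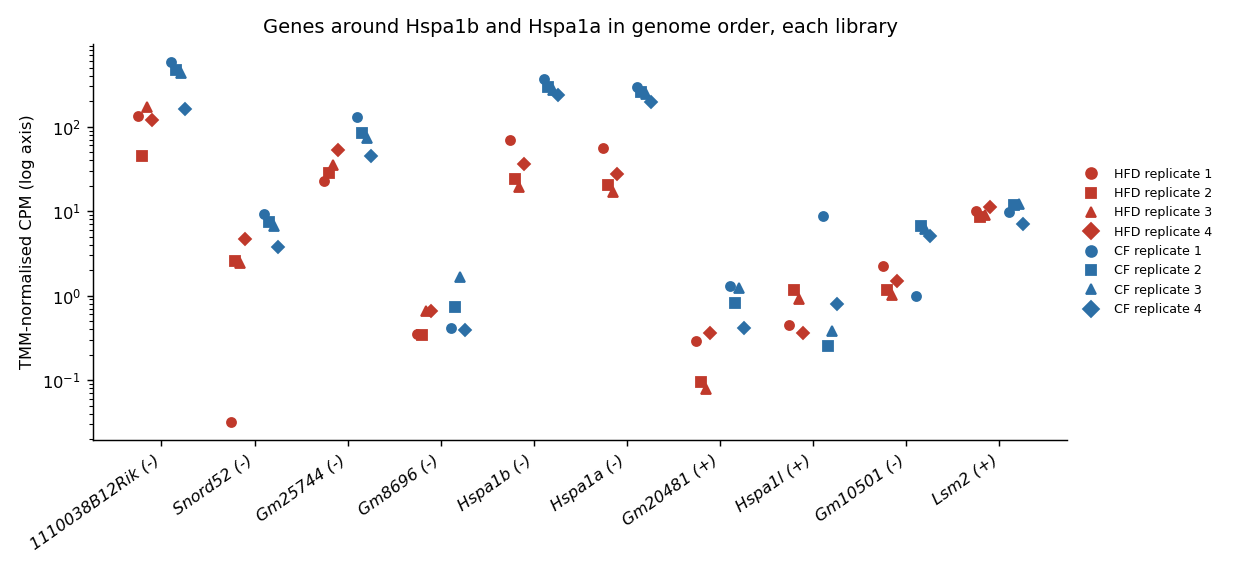
CPM after TMM scaling (log axis) in each library of the genes within 20 kb of Hspa1b and Hspa1a, in genome order with their strand, HFD in red and CF in blue. Hspa1a, Hspa1b and Gm20481 separate the diets, 1110038B12Rik overlaps only through CF replicate 4, and Lsm2 shows the diets at one level.

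Genes with a profile like that of the summed pair were ranked by the root mean square difference of centred log2 CPM over the 8 libraries. Of 15835 genes, the nearest were the snoRNA gene Gm24826 (0.74), Gm20481 (0.74), the snoRNA gene Gm22519 (0.76), Teddm2 (0.81) and the snRNA gene Gm24871 (0.81). Among protein-coding genes, Gm20481 and Teddm2 were followed by Fosb (0.84), an AP-1 factor, Lrrc61 (0.84) and Gm10382 (0.88). Fosb had 22.3 ± 15.0 CPM in HFD and 69.8 ± 26.5 CPM in CF (SD, n = 4). Of the genes described here, Dnajb1 came nearest at rank 402 (1.19), and the others lay between rank 2242 (Hsp90aa1) and rank 9423 (Hspe1). This likeness is a description over 8 libraries, mostly of the difference between the diets.

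The rest of the chaperone system was read from lists of 108 further genes by role, of which 95 were tested. In these, 68 log2 fold changes were positive and 27 negative, with a median of 0.09 against 0.05 for all genes tested. By edgeR 0 of the 95 genes were called, beside 0.423% of all genes called lower and 0% higher, and beside 0.034% called lower of the 11775 protein-coding genes, so that counts of 0 in these lists are near the background. At an unadjusted p below 0.05 were 0 lower and 2 higher. All genes tested had 5.34% lower and 3.22% higher at that p, and protein-coding genes, to which nearly all list genes belong, 1.67% lower and 3.71% higher. These 2 were Dnajc21, a J-domain protein of ribosome assembly (0.33, edgeR, adjusted p = 0.52), and Fkbp5, a co-chaperone of steroid receptors (0.39, adjusted p = 0.39). Of the 95 genes, 91 were under 0.5 in size.

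By role, 0 of 20 other heat-inducible targets of HSF1 were called, with a median of 0.10. Their lowest p belonged to Ier5, with -0.77 (edgeR, adjusted p = 0.66), and Chordc1, an HSP90 co-chaperone, with 0.42 (adjusted p = 0.68). Ier5, a growth factor response gene that acts on HSF1, had 48.7 CPM in HFD replicate 1, 14.5 to 18.3 CPM in the other HFD replicates and 36.0 to 48.03 CPM in CF. Without HFD replicate 1 it was called lower (log2 fold change -1.33, edgeR, adjusted p = 0.015), as the only gene of the 95. In that fit 1.05% of all genes tested were called lower.

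The 9 other HSP70 genes tested had a median of 0.11, with the lowest p for Hspa13 (0.26, edgeR, adjusted p = 0.74). The 18 J-domain genes had a median of 0.07, and after Dnajc21 the lowest p was that of Dnajc7 (0.21, edgeR, adjusted p = 0.69). Regulators of HSP70, 10 genes, had a median of 0.09, with Bag2 at 0.57 (edgeR, adjusted p = 0.59) and Bag1 at 0.22 (adjusted p = 0.69). Among 21 HSP90 co-chaperones 18 values were positive, with a median of 0.09, and among 14 genes of the CCT chaperonin and prefoldin 13, with a median of 0.15. The lowest p of the latter belonged to Vbp1 (0.21, edgeR, adjusted p = 0.75) and Cct6a (0.22, adjusted p = 0.79).

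The 12 mitochondrial chaperones and proteases had 6 positive and 6 negative values, a median of 0.02, and the lowest p in Clpx (0.17, edgeR, adjusted p = 0.80) and Grpel1 (0.22, adjusted p = 0.81). Of 9 small heat shock proteins only Hspb6 (0.22, edgeR, adjusted p = 0.83) and Hspb11 (0.30, adjusted p = 0.88) were tested. Of the other HSF genes and their binding proteins, Hsbp1 had 0.14 (edgeR, adjusted p = 0.92) and Hsf2 -0.06 (adjusted p = 0.97).

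**Figure D5:**
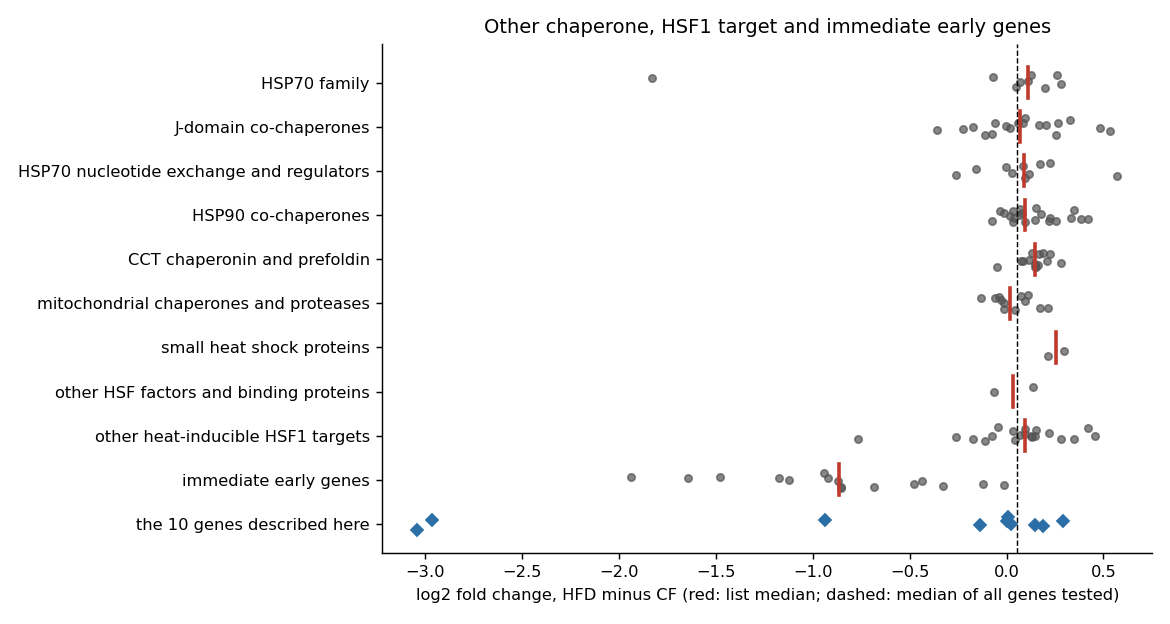
Log2 fold change of HFD minus CF of each gene in the lists (grey points) with the median of each list (red line), the median of all genes tested (dashed line) and the 10 genes described here (blue). The chaperone lists lie around the dashed line, and the immediate early genes lie below it, as do Hspa1a, Hspa1b and Dnajb1.

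Immediate early genes, which like Hspa1a are switched on within minutes of a stimulus, were read beside the chaperones. All 16 tested had negative values, with a median log2 fold change of -0.86. By edgeR 0 were called, and 4 of 16 were lower at an unadjusted p below 0.05, where all genes tested had 0.423% called lower and 5.34% lower at that p, and protein-coding genes 1.67% lower at that p. Of these, Jun had 58.8, 29.6, 55.0 and 34.2 CPM in HFD and 82.5, 77.4, 96.8 and 79.6 CPM in CF (log2 fold change -0.92, edgeR, adjusted p = 0.14), and Fosb had -1.65 (adjusted p = 0.20). The summed level was 980 CPM in HFD replicate 1, 294 to 351 CPM in the other HFD replicates and 666 to 1016 CPM in CF.

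The sum of HFD replicate 1 was thus within the CF range, while its single genes were above that range in 8 of 16, within it in 4 and below it in 4, Jun and Fosb among the last. Its Hspa1a level was below the CF range. Without HFD replicate 1, an alternative added for this list after the data were seen, 11 of the 16 were called lower. All genes tested in that fit had 1.05% called lower, and the share of protein-coding genes was not computed for it. The median of the 16 was -1.58, with Fos at -2.32 (edgeR, adjusted p = 0.034). That fit leaves out the HFD library in which the sum of these genes was highest. With library size alone 14 of the 16 were negative, and without HFD replicate 3 also 14. The part of neutrophil RNA in the levels of the immediate early genes was not tested. For Hspa1a and Hspa1b the difference was larger without that library.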

How the data were processed

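RNA of CDPs was sequenced in 8 libraries, 4 HFD and 4 CF. The authors' deposited table holds raw counts per gene: per the labels and the paper's methods, reads were checked with FastQC, trimmed with cutadapt, aligned to GRCm38 by HISAT2, and unique pairs counted by StringTie on GENCODE genes. Versions, annotation release and strandedness are not given in the sources used here. Columns were matched by the sample number in their names. Of 16119 genes, 16067 matched GENCODE vM21.

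Counts were filtered by filterByExpr, scaled by TMM and compared with robust quasi-likelihood tests in edgeR 4.0.16 under R 4.3.3, with diet as the only term and Benjamini-Hochberg adjustment over 15837 genes at a threshold of 0.05. Log2 CPM used a prior count of 2. The fit was tested on simulated data. Alternatives were RLE or no factors, DESeq2 1.42.0, limma voom 3.58.1, other filters (none, or 1 CPM in 4 libraries), a replicate block, protein-coding genes alone, summing Hspa1a and Hspa1b, and each library left out. Lists came from general knowledge. Named genes were the 10 genes, the lowest 2 p of each list, neighbours within 20 kb and the 5 nearest profiles. The genes and lists were chosen with earlier results of these data known. Ier5 and Fos were also described after their values were seen. Replicates of 1 diet differed by more than counting noise.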

Additional observations from a re-analysis of the deposited data

Results flagged for a closer look

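In groups of 4 libraries, a single library lay far from the other 3 in 3 of the 38 groups looked at, the 10 genes, their summed pair and their neighbours in each diet. Chance gives about 1 in 20. HFD replicate 4 had a log2 CPM of 5.71 for Hspe1, against 4.99 to 5.10 in the other HFD replicates. HFD replicate 1 had -3.49 for Snord52, against 1.30 to 2.23. CF replicate 1 had 0.05 for Gm10501, against 2.34 to 2.75 in the other CF replicates.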

How the results depend on the processing

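The log2 fold change of Hspa1a and Hspa1b summed stayed between -3.48 (without HFD replicate 1) and -2.80 (without HFD replicate 3) over 16 alternatives. Hspa1a and Hspa1b were each past the threshold in 8 of 16 alternatives. The calls were lost when any of 6 libraries was left out (HFD 2 to 4, CF 1 to 3), with the replicate block and with protein-coding genes alone. Dnajb1 was called in 2, DESeq2 and without CF replicate 4. Over all genes, edgeR called 67 lower and 0 higher. DESeq2 called 503 lower and 64 higher, and library size alone gave 10 higher. The replicate block gave 0 lower by edgeR (675 at an unadjusted p below 0.05), as did protein-coding genes alone (252). The count of 0 higher had 510 at an unadjusted p below 0.05. With each library left out in turn, 0 to 166 genes were lower and 0 to 34 higher, 154 of them lower without CF replicate 4 and 166 without HFD replicate 1. The cause was not tested. Of the other chaperone and HSF1 lists, 0 to 1 gene was called. Of the immediate early genes DESeq2 called 3, and leaving out libraries gave 0 to 11. For this list all alternatives were added after the data were seen. Same-numbered HFD and CF libraries had correlations of their deviations from -0.44 to -0.08, so the numbers do not pair them. The lowest count of Hspa1a in any library was 644, and how reads were divided between it and Hspa1b was not tested.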
